A study of Mus musculus with 12 samples.

Results

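Mast cells were followed in mouse heart RNA through 6 genes: the granule proteases Cpa3, Mcpt4, Cma1 and Tpsb2, the histamine-forming enzyme Hdc and the IgE receptor subunit Ms4a2. The members were the rows of the deposited table with these symbols, 6 of 30199 genes, read in 12 libraries. Hearts of C57BL/6J mice were compared in 4 groups of 3 libraries each: controls (ctrl), PLX3397 alone, sorafenib alone, and sorafenib with PLX3397, written below as both agents. The series' design text gives 28 days of sorafenib, with or without macrophage clearance agents. The labels give neither dose, route, sex nor age, and do not say that each library is a separate animal, so p-values measure only the spread between these libraries, which may be technical.

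Mast cells are long-lived tissue cells that store histamine, heparin and proteases in granules and release them when IgE bound to their Fc receptor is cross-linked. They depend on the receptor KIT and its ligand, stem cell factor. In the heart they are sparse. PLX3397 (pexidartinib) inhibits the macrophage receptor CSF1R and also KIT, and sorafenib inhibits several kinases, KIT among them. RNA of heart tissue was sequenced, so fewer mast cells and less RNA per mast cell cannot be told apart.

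Total estimated counts were 61626404 to 64537365 per library. The members were low: their highest value in any library was 0.944 FPKM, and 146 estimated counts. Low values in the table piled up at multiples of 4, where 4 occurred 12143 times, 3 occurred 5303 times and 5 occurred 3364 times, so a value of 8 may stand for fewer than 8 sequenced fragments. Of the 6 members, 5 passed the filter on low counts; Ms4a2 did not. Mean levels over the 12 libraries were 0.419 FPKM for Mcpt4, 0.335 for Cma1, 0.298 for Tpsb2, 0.256 for Cpa3, 0.194 for Hdc and 0.00517 for Ms4a2. FPKM divides by gene length and so permits comparison between genes. The label was checked against these genes: the 4 proteases were above 0 in every control library, whereas Ms4a2 was at 0 in all 3 controls and the IgE-binding subunit Fcer1a in 2 of 3. The data thus show granule proteases, and carry almost no signal of the receptor subunits that define the cell together with them.

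By mean FPKM, the 4 proteases were lower with sorafenib than in either group without it, and lowest with both agents. Hdc had group means of 0.164 to 0.227 FPKM, and no call in any comparison. In the average sorafenib effect, the mean of the sorafenib difference without and with PLX3397 (6 libraries against 6), Mcpt4 fell 3.43-fold (-1.78 ± 0.41, log2 fold change ± SE, adjusted p = 0.0137) and Cpa3 fell 3.04-fold (-1.60 ± 0.42, adjusted p = 0.0255). With both agents against control, Cpa3 fell 4.88-fold and Mcpt4 4.32-fold. No member passed for sorafenib alone against control or for PLX3397 alone against control. Each adjusted p comes from edgeR's quasi-likelihood F test with Benjamini-Hochberg adjustment over 18897 genes, and a gene was called at an adjusted p under 0.05.

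Cpa3 (ENSMUSG00000001865) encodes carboxypeptidase A3, a metalloprotease of mast cell granules (chromosome 3, 20215620 to 20242181, minus strand, mm10). Its estimated counts were 45, 43 and 30 in the controls, 23, 72 and 28 with PLX3397, 12, 15 and 35 under sorafenib, and 8, 5 and 8 under both agents. All 3 libraries with both agents lay below every other library, and sorafenib replicate 3 lay within the range of the controls. Mean levels were 0.367 ± 0.079 FPKM (SD, n = 3) for controls, 0.394 ± 0.266 for PLX3397, 0.198 ± 0.119 for sorafenib and 0.064 ± 0.017 for the combination. The order was thus PLX3397, control, sorafenib, both agents; PLX3397 and control overlapped, as did control and sorafenib, while both agents and sorafenib did not.

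Mcpt4 (ENSMUSG00000061068) encodes the chymase mMCP-4, a chymotrypsin-like serine protease of connective tissue mast cells (chromosome 14, 56059629 to 56062313, minus strand). Its estimated counts were 61, 40 and 59 in the controls, 40, 71 and 36 with PLX3397, 12, 12 and 27 under sorafenib, and 4, 20 and 8 under both agents. Each of the 6 libraries with sorafenib lay below each of the 6 without it. Levels were 0.681 ± 0.147 FPKM (SD, n = 3) for controls, 0.642 ± 0.263 for PLX3397, 0.216 ± 0.111 for sorafenib and 0.134 ± 0.114 for the combination. Control and PLX3397 overlapped, and so did sorafenib and both agents.

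Cma1 (ENSMUSG00000022225) encodes another chymase, mMCP-5, in the same protease cluster (chromosome 14, 55941451 to 55944675, minus strand). Its estimated counts were 49, 51 and 31 in the controls, 27, 34 and 30 with PLX3397, 14, 10 and 41 under sorafenib, and 0, 18 and 0 under both agents. The libraries with both agents lay below those of controls and of PLX3397, and sorafenib replicate 3 lay among the controls. Levels were 0.572 ± 0.147 FPKM (SD, n = 3), 0.402 ± 0.053, 0.288 ± 0.227 and 0.079 ± 0.136 in controls, PLX3397, sorafenib and both agents. Neighbours in that order overlapped; sorafenib replicates 1 and 2 lay below every library without sorafenib.

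Tpsb2 (ENSMUSG00000033825) encodes the tryptase mMCP-6, a trypsin-like protease stored bound to heparin (chromosome 17, 25366305 to 25369098, plus strand). Its estimated counts were 53, 42 and 92 in the controls, 32, 24 and 42 with PLX3397, 9, 8 and 68 under sorafenib, and 4, 28 and 0 under both agents. Sorafenib replicate 3 exceeded 2 of the 3 controls, whereas replicates 1 and 2 lay below every library without sorafenib. Levels were 0.552 ± 0.235 FPKM (SD, n = 3), 0.289 ± 0.083, 0.256 ± 0.313 and 0.095 ± 0.138 in controls, PLX3397, sorafenib and both agents. The related tryptase gene Tpsab1 lies nearby on the same chromosome and had 0 to 10 estimated counts; how the counting shared reads between such similar genes is not given in the sources used here, so both values are uncertain.

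Hdc (ENSMUSG00000027360) encodes histidine decarboxylase, which forms histamine in mast cells and in other cells (chromosome 2, 126593667 to 126618678, minus strand). Its estimated counts were 97, 67 and 146 in the controls, 101, 78 and 81 with PLX3397, 86, 70 and 62 under sorafenib, and 70, 104 and 81 under both agents. All 4 groups overlapped. Levels were 0.227 ± 0.087 FPKM (SD, n = 3), 0.192 ± 0.027, 0.164 ± 0.032 and 0.192 ± 0.039 in the same order of groups.

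Ms4a2 (ENSMUSG00000024680) encodes the beta subunit of the high-affinity IgE receptor (chromosome 19, 11615523 to 11623719, minus strand). It was at 0 in 10 of 12 libraries, with 8 estimated counts in PLX3397 replicate 2 and 4 in sorafenib replicate 3. A count of 0 allows up to 3 counts, 0.0465 to 0.0487 CPM (counts scaled to library size) in these libraries, by counting error alone and if a count is a single fragment. With so many libraries at 0, its levels allow no comparison between groups.

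**Figure D1:**
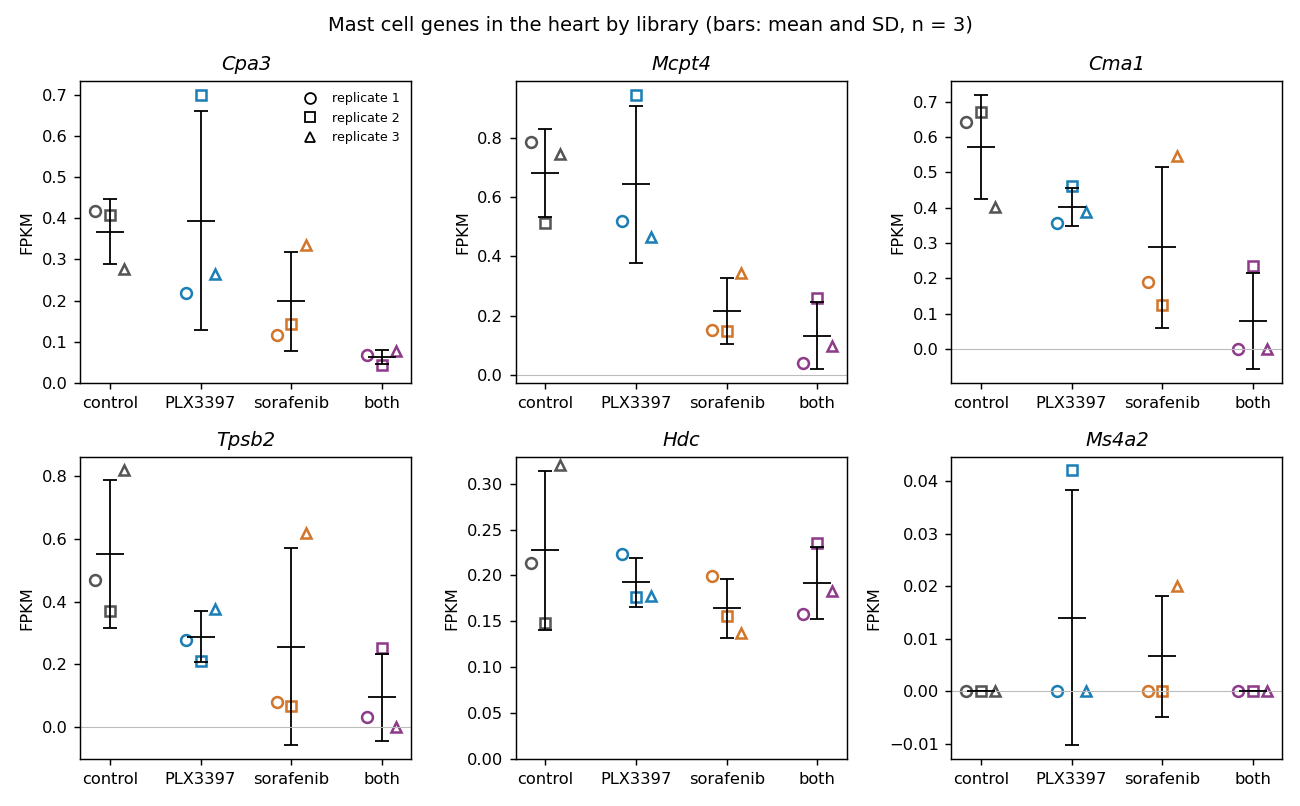
Level of each member in FPKM (y axis) by group (x axis); each symbol is a library, and black bars give the mean and SD of 3 libraries. Mcpt4 lies between 0.042 and 0.345 FPKM in the 6 libraries with sorafenib and between 0.465 and 0.944 in the 6 without, and sorafenib replicate 3 (triangle) is the highest of its group for each of the 4 proteases.

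Promoters are shown for Cpa3 and Mcpt4, the members called, and for Cma1, which lies in the same cluster as Mcpt4. Each runs from 250 bases before to 50 bases after a start site (RefSeq, GRCm38.p6), and 5 of the 6 members had one in the table used. Capitals mark AGATAA or TGATAA on either strand, forms bound by GATA factors, of which GATA2 is needed in mast cells. Forms that end in G, AGATAG and TGATAG, were not searched or marked.
Cpa3 (chr3:20242132-20242431, minus strand): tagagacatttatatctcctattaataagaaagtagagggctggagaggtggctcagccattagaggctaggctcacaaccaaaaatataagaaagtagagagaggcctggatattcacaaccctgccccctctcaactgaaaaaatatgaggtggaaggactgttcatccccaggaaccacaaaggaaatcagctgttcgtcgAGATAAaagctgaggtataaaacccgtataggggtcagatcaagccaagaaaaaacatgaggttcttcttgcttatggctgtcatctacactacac
Mcpt4 (chr14:56062261-56062560, minus strand): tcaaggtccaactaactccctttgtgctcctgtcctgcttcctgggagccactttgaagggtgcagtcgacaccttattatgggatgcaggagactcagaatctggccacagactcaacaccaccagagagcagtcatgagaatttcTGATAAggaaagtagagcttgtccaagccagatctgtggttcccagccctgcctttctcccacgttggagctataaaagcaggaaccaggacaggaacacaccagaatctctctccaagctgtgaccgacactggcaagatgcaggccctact
Cma1 (chr14:55944626-55944925, minus strand): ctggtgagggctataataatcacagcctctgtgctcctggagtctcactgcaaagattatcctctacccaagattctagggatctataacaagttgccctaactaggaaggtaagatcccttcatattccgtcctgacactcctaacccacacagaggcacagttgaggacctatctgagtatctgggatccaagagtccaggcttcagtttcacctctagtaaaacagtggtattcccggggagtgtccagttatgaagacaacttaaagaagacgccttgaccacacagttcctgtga
AGATAA stood 46 bases before the Cpa3 start and TGATAA 103 bases before the Mcpt4 start. The Cma1 and Hdc windows held neither of these forms, and that of Ms4a2 held AGATAA 3 times. The Cma1 window does hold ctatct, which is AGATAG on the other strand, and the Hdc window holds tgatag. A window without capitals is thus not shown to lack a GATA site. Of 32851 promoters of the same length, 18.6% held either motif. The E-box forms CACATG and CACGTG, which MITF can bind, were searched on both strands too. Neither was in any of these 5 windows; CACATG was in 14.2% of all promoters and CACGTG in 7.15%. A match is a description of the letters and does not show binding.

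The average sorafenib effect asks what the drug changed on average over the libraries without and with PLX3397. It does not require a change in each: the differences without and with PLX3397 were -0.78 and -2.43 for Cpa3, and -1.49 and -2.07 for Mcpt4. Of the 5 members tested, 2 fell and 0 rose; 6.32% of all genes tested fell. The 2257 genes called in either direction became 1479 without control replicate 3, 1396 without PLX3397 replicate 1 and 1406 without replicate 1 of both agents. The members' median was -1.52, and all 5 values were below 0, against a median of -0.01 over all genes. Cma1 (-1.52 ± 0.69, adjusted p = 0.171) and Tpsb2 (-1.23 ± 0.71, adjusted p = 0.290) had lower means with sorafenib too, with wider errors, and did not pass. Hdc was at -0.12 ± 0.22 (adjusted p = 0.789). Mcpt4 was the member whose 6 libraries with sorafenib did not overlap the 6 without; 2.42% of all genes were lower without overlap in that way. An exact two-sided permutation of the sorafenib labels, within the libraries without and with PLX3397, was added after the data were examined. The permutation gave p = 0.005 for Mcpt4, the smallest it can give, 0.01 for Cpa3, 0.015 for Cma1, 0.055 for Tpsb2 and 0.655 for Hdc. These values are unadjusted over the 5 genes, and the permutation was not run over all genes. By edgeR Mcpt4, Cpa3 and Cma1 had an unadjusted p under 0.05, as did 27.2% of all genes tested. The Mcpt4 call held without any 1 of the 12 libraries, at -2.20 to -1.57. The Cpa3 call was lost without control replicate 2 (-1.55), PLX3397 replicate 2 (-1.24), sorafenib replicate 1 (-1.47) or 2 (-1.52), or replicate 1 (-1.66) or 2 (-1.52) of both agents, with adjusted p-values of 0.0504 to 0.0802. Leaving out replicate 2 of both agents gave Tpsb2 a value of -2.42 and an adjusted p of 0.0455, and Cma1 one of -4.39 with an adjusted p of 0.00428, a fit in which its other 2 libraries of that group are at 0.

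Both agents against control asks what the combination changed. Here 2 of the 5 tested members fell and 0 rose, where 8.14% of all genes tested fell. The 3046 genes called in either direction became 1701 and 1278 without control replicates 2 and 3, and 1308 and 1805 without replicates 1 and 2 of both agents. Cpa3 was at -2.29 ± 0.62 (adjusted p = 0.0251) and Mcpt4 at -2.11 ± 0.59 (adjusted p = 0.0286). Cma1, with -2.64 ± 1.03 (adjusted p = 0.0944), and Tpsb2, with -2.33 ± 1.04 (adjusted p = 0.147), did not pass. The libraries of both agents lay below every control for all 4 proteases; 19.0% of all genes were lower without overlap. Hdc was at -0.09 ± 0.31 (adjusted p = 0.886). Both calls turned on single libraries: Cpa3 was lost without control replicate 2 (-2.19) or any replicate of both agents (-2.39, -2.12 and -2.38), and Mcpt4 without control replicate 1 (-2.02) or 3 (-2.03) or replicate 1 (-1.72) or 3 (-1.93) of both agents. Without replicate 2 of both agents Cma1 and Tpsb2 passed, with adjusted p-values of 0.00400 and 0.0259; the fitted value for Cma1 is then set against libraries at 0 and is no measure of size. With limma on the deposited FPKM, at a pseudocount of 0.5 or 0.05, all 4 proteases passed. Those settings called 3377 and 3290 genes, with medians over all genes of -0.09 and -0.15. DESeq2's Wald test called Cma1 (adjusted p = 0.0374) besides Cpa3 and Mcpt4, and 4080 genes in all.

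Sorafenib alone against control gave values below 0 for all 5 members, and none passed. By edgeR 0 members were called and 1, Mcpt4, had an unadjusted p under 0.05, against 1.14% of all genes called lower, 1.50% called higher, 2.65% in either direction and 21.7% with an unadjusted p under 0.05. These shares rested on single libraries: the 500 genes called became 24 without sorafenib replicate 1, 178 without its replicate 2, 1352, 85 and 45 without control replicates 1, 2 and 3, 1187 and 331 without PLX3397 replicates 1 and 2, and 317 without replicate 2 of both agents. Mcpt4 was at -1.49 ± 0.57 (adjusted p = 0.153), Tpsb2 at -1.0 ± 0.97 (adjusted p = 0.595), Cma1 at -0.87 ± 0.93 (adjusted p = 0.637), Cpa3 at -0.78 ± 0.58 (adjusted p = 0.464) and Hdc at -0.34 ± 0.31 (adjusted p = 0.574). Mcpt4 was also the member without overlap, as were 13.7% of all genes. DESeq2's Wald test called 0 members, while it called 1739 genes. With limma on log2(FPKM + 0.5) Mcpt4 was called (adjusted p = 0.0460), among 854 genes. Sorafenib replicate 3 set much of the spread. The summed level of the 4 proteases, in CPM with TMM factors, was 0.785 and 0.772 CPM in replicates 1 and 2 and 2.73 CPM in replicate 3, beside 2.71 to 3.15 CPM in the controls. Without replicate 3, Tpsb2 was at -2.65, Cma1 at -1.65, Cpa3 at -1.33 and Mcpt4 at -1.93, and none passed.

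PLX3397 alone against control showed no called member, and edgeR called 0% of all genes. No member had an unadjusted p under 0.05, which 12.3% of all genes had, and DESeq2's Wald test called 102 genes, 0 of them members. The 0% rested on PLX3397 replicate 1: without it edgeR called 520 genes, still with 0 members. Cpa3 was at 0.14 ± 0.56 and Mcpt4 at -0.04 ± 0.55, both with a sign that changed with the library left out. Cma1 was at -0.46 ± 0.92, Tpsb2 at -0.87 ± 0.96 and Hdc at -0.19 ± 0.31. For Tpsb2 the order of the nearest libraries turned on the scaling. With TMM factors all 3 PLX3397 libraries lay below every control, as for 7.31% of all genes. Scaled to library size alone, PLX3397 replicate 3 (0.661 CPM, 0.376 FPKM) exceeded control replicate 2 (0.658 CPM, 0.370 FPKM). PLX3397 replicate 2 stood apart in its group for Cpa3 and Mcpt4, at 72 and 71 estimated counts, and without it Cpa3 was at -0.59. The average PLX3397 effect, over the libraries without and with sorafenib, called 0 members and 0% of all genes by edgeR, with no member at an unadjusted p under 0.05 where 12.6% of all genes were, and 137 genes but 0 members by DESeq2's Wald test. Without PLX3397 replicate 1 edgeR called 356 genes for it, 0 of them members, and 0 to 2 genes without any other library. Its values were -0.68 ± 0.42 for Cpa3, -0.33 ± 0.40 for Mcpt4, -1.11 ± 0.69 for Cma1, -1.10 ± 0.71 for Tpsb2 and 0.03 ± 0.22 for Hdc.

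Adding PLX3397 to sorafenib, and sorafenib to PLX3397, were compared next. For both agents against sorafenib edgeR called 0 members and 0% of all genes. Cpa3, at -1.51 ± 0.63, was the member with an unadjusted p under 0.05 (edgeR's quasi-likelihood test over all genes, adjusted p = 0.722), where 6.43% of all genes had one, and DESeq2's Wald test called 65 genes, 0 of them members. Cpa3 was also the member without overlap, as were 6.21% of all genes. Without sorafenib replicate 3 the Cpa3 value was -0.95, that of Mcpt4 moved from -0.62 to -0.17, that of Cma1 from -1.77 to -0.97, and that of Tpsb2 turned from -1.32 to 0.34. For both agents against PLX3397, Cpa3 fell (-2.43 ± 0.63, adjusted p = 0.0487), 1 of 5 tested members where 2.23% of all genes fell, 1.01% rose and 3.23% did either. Those 611 genes became 223, 315 and 347 without PLX3397 replicates 1, 2 and 3, and 176, 392 and 321 without replicates 1, 2 and 3 of both agents. The Cpa3 call was lost with counts divided by 4 (adjusted p = 0.0512), with no filter (0.0513), with only the groups compared (0.0853) and with limma on log2(FPKM + 0.5) (0.0763). It was also lost without any 1 of 10 of the libraries, held without sorafenib replicate 1 or 3, and stood at -1.70 (adjusted p = 0.225) without PLX3397 replicate 2. Mcpt4 was at -2.07 ± 0.59 (adjusted p = 0.0776), and passed without replicate 2 of both agents (-2.91), as did Cma1 (adjusted p = 0.0122, against 2 libraries at 0). Cpa3, Mcpt4 and Cma1 did not overlap between these groups, all lower with both agents, as did 11.5% of all genes. The interaction, the sorafenib effect given PLX3397 minus that without it, called 0 members and 0% of all genes; it was -1.65 ± 0.84 for Cpa3 (adjusted p = 0.822) and -0.58 ± 0.81 for Mcpt4 (adjusted p = 0.919). DESeq2's Wald test called 5 genes in it, 0 of them members, and no member had an unadjusted p under 0.05 in edgeR where 5.82% of all genes did. These comparisons share libraries with each other and are not independent.

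**Figure D2:**
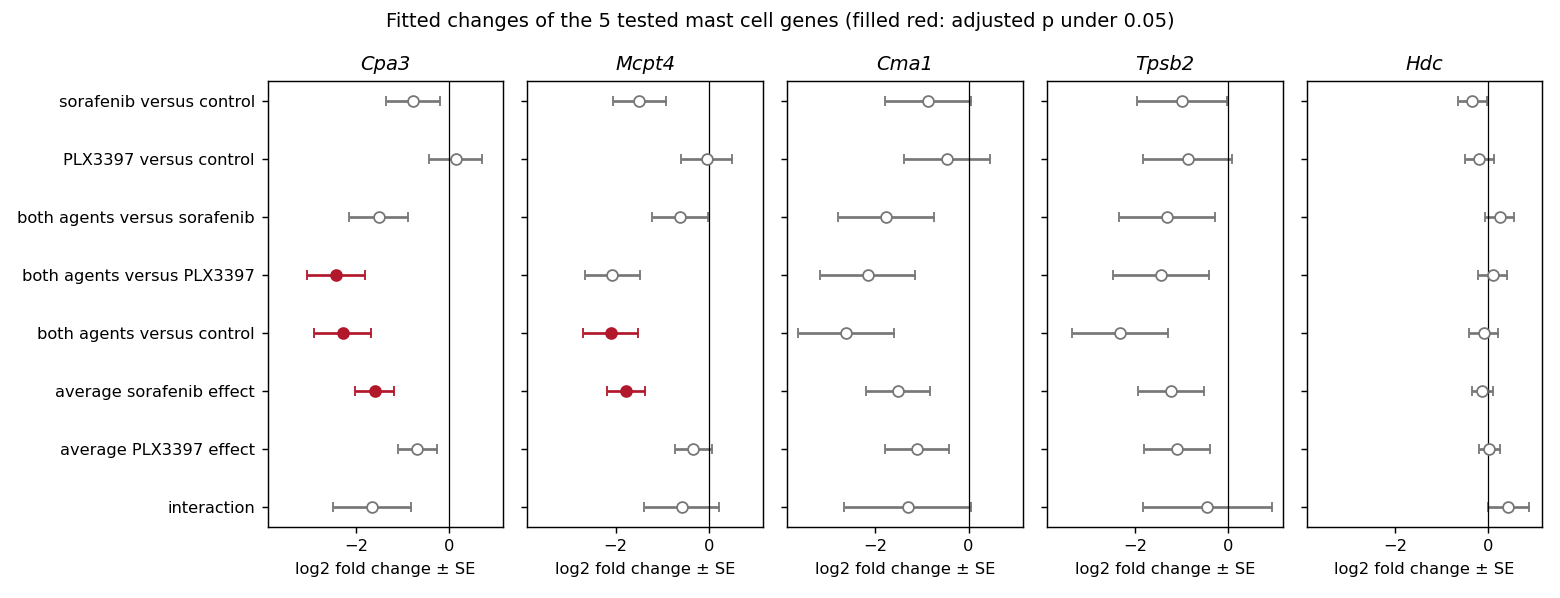
Log2 fold change with its SE (x axis) of the 5 tested members in each of the 8 comparisons (y axis), from the fit of all 12 libraries; filled red points are called. The 5 called points belong to Cpa3 and Mcpt4 and lie between -2.43 and -1.60, while every Hdc point lies between -0.34 and 0.44.

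Other genes of mast cells were read from a list of 24, of which 21 were in the table and 15 passed the filter on low counts. In the average sorafenib effect 5 fell and 1 rose, with a median of -0.40; 6.32% of all genes fell and 5.62% rose. Fcer1g encodes the signalling chain that the IgE receptor shares with Fc receptors of macrophages. It fell by 1.36 ± 0.17 on the log2 scale in the average sorafenib effect (adjusted p = 2.94e-04). Its levels were 12.7 ± 0.78 FPKM (SD, n = 3) for controls and 9.62 ± 2.27 for PLX3397. They were 4.88 ± 1.95 for sorafenib and 3.21 ± 0.63 for the combination. Ltc4s, leukotriene C4 synthase, fell (-1.40 ± 0.23, adjusted p = 0.00172). Srgn, whose proteoglycan core holds the proteases in the granule, fell (-0.49 ± 0.09, adjusted p = 0.00301). Hpgds, the haematopoietic prostaglandin D synthase (-0.74 ± 0.21, adjusted p = 0.0338), and Il1rl1, the receptor for interleukin-33 (-1.20 ± 0.33, adjusted p = 0.0302), fell too. Mitf, a transcription factor of mast cells that cardiomyocytes and other cells also express, rose (0.36 ± 0.07, adjusted p = 0.00418). Fcer1g, Ltc4s, Srgn, Hpgds and Alox5 are also made by macrophages.

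With sorafenib alone against control Fcer1g was the 1 gene of the list called (-1.25 ± 0.24, adjusted p = 0.0186), where 1.14% of all genes fell. With both agents against PLX3397 Fcer1g (-1.46), Ltc4s (-1.96) and Srgn (-0.52) fell and Mitf rose (0.42), where 2.23% of all genes fell and 1.01% rose. The calls of Fcer1g, Ltc4s, Srgn and Mitf in the average sorafenib effect held without any 1 library. Hpgds was lost without control replicate 1 or 2, PLX3397 replicate 1, sorafenib replicate 1 or 2, or any replicate of both agents, at -0.77 to -0.64. Il1rl1 was lost without control replicate 1 (-0.98), PLX3397 replicate 1 (-1.20) or 2 (-1.18), or sorafenib replicate 1 (-1.24) or 2 (-1.11). With both agents against control, 5 of the 15 fell and 2 rose, where 8.14% of all genes fell and 7.97% rose. The 5 were Fcer1g (-1.83), Ltc4s (-1.73), Hpgds (-1.11), Alox5 (-0.66), which encodes 5-lipoxygenase, and Srgn (-0.59). Kitl, the gene of stem cell factor, rose by 0.42 ± 0.11 (adjusted p = 0.0164), and Mitf by 0.47 ± 0.10 (adjusted p = 0.00621). Kitl was lost without control replicate 2 (0.36) or 3 (0.41) or replicate 1 of both agents (0.40), and with limma on FPKM. Hpgds was lost there without control replicate 1 (-0.94) or 2 (-1.02) or any replicate of both agents (-1.18, -1.04 and -1.12). Alox5, at an adjusted p of 0.0483, was lost without any 1 of 9 libraries, at -0.75 to -0.55.

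Kit, the growth factor receptor gene, had 355 to 463 estimated counts in controls, 284 to 357 with PLX3397, 157 to 482 with sorafenib and 167 to 367 with both agents. The groups overlapped, and its average sorafenib effect was -0.21 ± 0.27 (adjusted p = 0.673). Gata2, a transcription factor of mast cells that endothelial cells also express, was at 0.13 ± 0.09 (adjusted p = 0.368). Fcer1a, Tpsab1 and Mrgprb2, the receptor for basic peptides on connective tissue mast cells, were too low to test, with at most 8, 10 and 11 estimated counts and with 9, 8 and 7 of the 12 libraries at 0. Mcpt1, Mcpt2 and Mcpt9 were not analysed here.

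**Figure D3:**
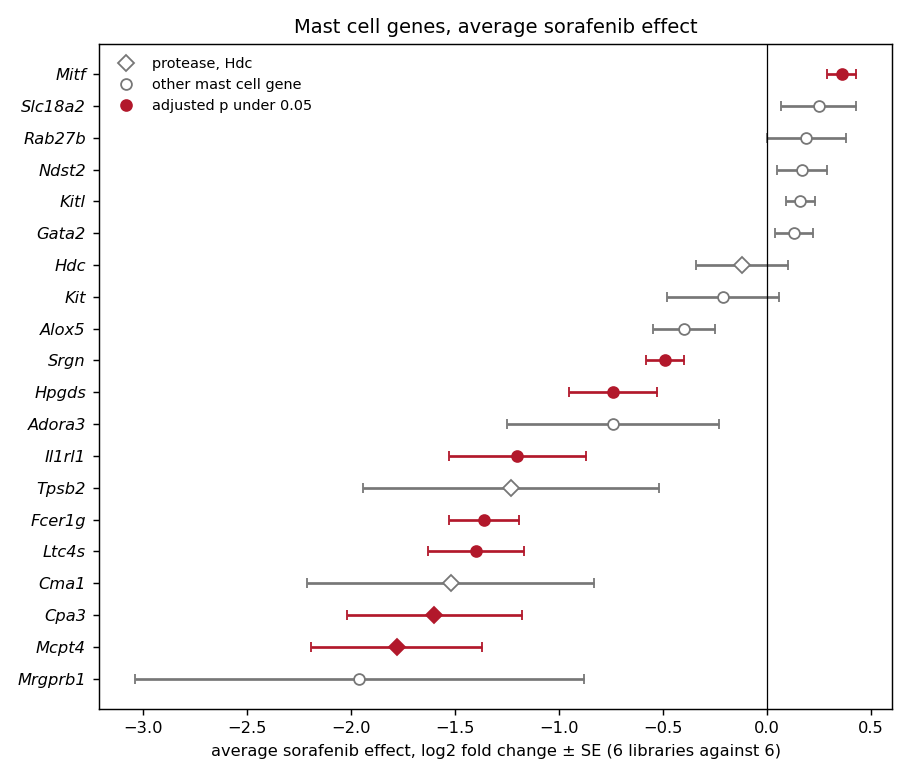
Average sorafenib effect as log2 fold change with its SE (x axis) for the 20 tested mast cell genes (y axis); diamonds are members, circles the other genes, and red is called. Mcpt4 and Cpa3 are the lowest called points at -1.78 and -1.60, and Mitf is the highest at 0.36.

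Markers of other cells moved in the same libraries. Of 16 resident macrophage markers, 14 fell and 0 rose in the average sorafenib effect (median -1.35), where 6.32% of all genes fell. With both agents against control 13 fell (median -1.75), where 8.14% of all genes did. With sorafenib alone 8 fell, where 1.14% of all genes did. Their summed level was 307 to 400 CPM in controls, 338 to 353 with PLX3397, 146 to 231 with sorafenib and 103 to 154 with both agents, with 0 markers at 0 in any library. The summed level of the 4 proteases was 2.71 to 3.15 CPM in controls, 1.83 to 3.24 with PLX3397, 0.772 to 2.73 with sorafenib and 0.265 to 1.22 with both agents. Sorafenib replicate 3 was highest of its group for the proteases and for the macrophage sum alike. Replicate 2 of both agents was highest of its group for the proteases. Its macrophage sum was highest too, at 8932 estimated counts beside 6120 and 8379 in replicates 1 and 3. Cbr2 alone gave 2014 of these, beside 333 and 512. The order of replicates 2 and 3 rested on this gene: without it the summed count was highest in replicate 3. By estimated count, Csf1r, Cd68, C1qa, C1qb, C1qc, Lyve1, Timd4, Folr2, Fcgr1 and F13a1 were highest in replicate 3. Cd163, Mrc1, Mertk and Cbr2 were highest in replicate 2, and Adgre1 and Cx3cr1 in replicate 1. The part of macrophages in the fall of the shared genes was not tested.

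The 6 genes most like the mean profile of the 5 tested members over the 12 libraries, by Pearson's r of log2 CPM among 14032 genes, were Emp3 (0.96), Pik3ap1 (0.94), Cd86 (0.93), Ncf1, P2ry6 and Lyz2 (0.92 each). Lyz2 and Cd86 are used as markers of macrophages, and Ncf1 encodes a subunit of the phagocyte oxidase. Each r describes 12 libraries whose groups differ, and carries no test.

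Basophils share several genes with mast cells. Of 6 basophil markers 3 passed the filter, and 0 were called by edgeR in any of the 8 comparisons. Mcpt8 and Prss34, the proteases that mark basophils, had at most 4 estimated counts in any library. The list's summed level was 1.78 to 2.38 CPM in controls and 0.258 to 1.71 with PLX3397, 0.655 to 1.02 with sorafenib and 0.810 to 0.949 with both agents. Ccl3, a chemokine that macrophages also make, had 108, 90 and 117 estimated counts in the controls, 94, 7 and 0 with PLX3397, 13, 26 and 16 under sorafenib, and 20, 30 and 36 under both agents. Its mean was 105 of the list's mean of 143 counts in controls, so the summed level mainly follows Ccl3. In the average sorafenib effect Ccl3 was at -1.21 ± 0.72, and the other tested markers, Il4 and Gata1, were at -0.11 ± 0.47 and 0.55 ± 0.86. Atrial markers varied between libraries: their summed level was 677 to 1430 CPM in controls, 266 to 452 with PLX3397, 2380, 313 and 250 with sorafenib replicates 1, 2 and 3, and 261 to 412 with both agents. The sorafenib library with the most atrial RNA was thus replicate 1, while that with the most protease RNA was replicate 3. Nppa gave a mean of 36982 of the list's 67600 estimated counts in controls, and 15893 of 20000 with both agents. Over the 8 atrial markers, the median was -2.25 for both agents against control, with 7 below 0 and 0 called. In the average sorafenib effect it was -0.57, with 5 below 0 and 0 called. Of 8 mesothelial markers, which mark the outer surface of the heart, 0 were called in the average sorafenib effect (median -0.03). Of 7 tested adipocyte markers 0 were (median -0.09). With both agents against control 0 of either list were called, where 8.14% of all genes fell. The mesothelial median was then -0.37, with 5 of 8 below 0, and the adipocyte median -0.59, with 7 of 7 below 0. Cardiomyocyte markers rose in 5 of 8 cases in the average sorafenib effect (median 0.28), where 5.62% of all genes rose. The part of tissue sampling in the protease values was not tested.

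**Figure D4:**
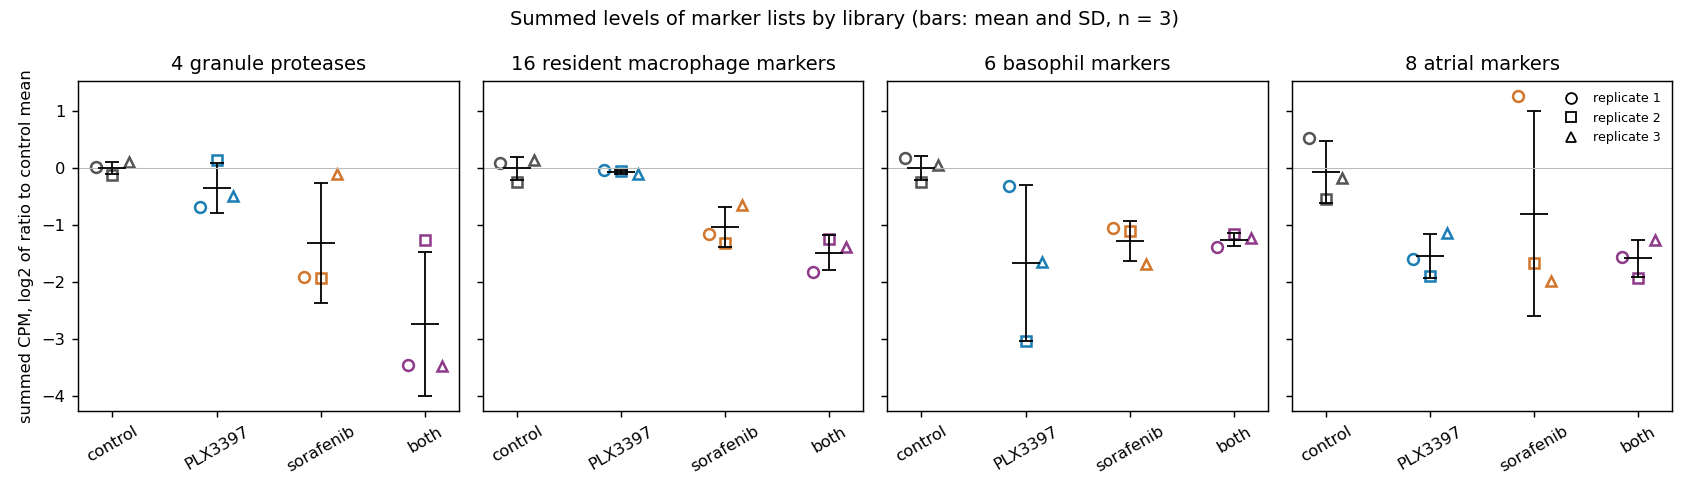
Summed CPM of 4 marker lists as log2 of the ratio to the mean of the controls (y axis) by group (x axis); symbols are libraries, bars the mean and SD of 3. The proteases reach -3.45 and -3.48 in replicates 1 and 3 of both agents, macrophage markers lie between -1.82 and -0.65 in the 6 libraries with sorafenib, and atrial markers are highest in sorafenib replicate 1 at 1.26.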

How the data were processed

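Poly(A) RNA of 12 heart libraries was sequenced. The deposited table held an estimated count and an FPKM value per gene and library, both made by the authors; per the file headers they are named count and FPKM. The submitters' processing notes name DESeq2, edgeR and mm10, while no source used here names the aligner or the counting program. All values of the deposited estimated count were whole and entered the fit unchanged. Groups came from the sample titles. The library protocol incorporated dUTP, per the labels; no source used here says whether counting used strand.

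The tests ran in edgeR 4.0.16 (R 4.3.3): filterByExpr (minimum count 10, minimum total 15) left 18897 genes, TMM factors were 0.933 to 1.09, and all 12 libraries entered 1 robust quasi-likelihood fit with a mean for each group. P-values were two-sided and Benjamini-Hochberg adjusted over all genes of a comparison. SE came from the F statistic. Summed levels and overlap of libraries were taken from CPM with TMM factors. Members and gene lists were chosen with earlier results of these data known. Named genes were the 6 members, 7 other mast cell genes whatever their result, and every called gene of that list. The 6 genes most alike among genes averaging 0.1 FPKM or more were named too. Alox5 and Mitf, like the other called genes, are named by the rule on called genes. The basophil markers named singly, and Cbr2 among the macrophage markers, were singled out after their values were seen.

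Alternatives were size factors of DESeq2 1.42.0, its Wald test, no filter, a filter at 1 CPM in 3 libraries, limma 3.58.1 on log2 of FPKM plus 0.5 or 0.05, a replicate block, only the groups compared, counts divided by 4, no mitochondrial genes, and leaving out each library with the same genes kept. No pair of libraries was identical, and replicates correlated at 0.964 to 0.974 in log2 CPM.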

Additional observations from a re-analysis of the deposited data

How the results depend on the processing

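The number of members called moved with several settings. In the average sorafenib effect it was 2, and 1 with a replicate block. There limma on log2 of FPKM plus 0.05 or plus 0.5 called Cma1 besides Cpa3 and Mcpt4. With both agents against control the number was 2, and 4 with limma on log2 of FPKM plus 0.05 or plus 0.5. There DESeq2's Wald test called Cma1 besides Cpa3 and Mcpt4. With both agents against PLX3397 the number was 1, and 2 with DESeq2's Wald test or limma at 0.05. It was 0 with counts divided by 4, with no filter, with only the groups compared or with the replicate block. Over all genes the main fit called 611 there, DESeq2's Wald test 1212 and limma at 0.05 646. With sorafenib against control the number of members was 0, and 1 with limma at 0.5, which called 854 genes. A filter at 1 CPM gave 0 in the first 3 comparisons because 1 member, Hdc, stayed in the test. Leaving out each library gave 1 to 3 members in the average sorafenib effect, 0 to 3 for both agents against control, 0 to 2 for both agents against PLX3397, and 0 in the other 5 comparisons. The causes of the other shifts were not tested.

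Values near 0 changed sign. For PLX3397 against control, Cpa3 was at -0.05 with limma at 0.05 and between -0.59 and 0.46 with a library left out, Mcpt4 between -0.45 and 0.15, and Hdc between -0.41 and 0.14. With a library left out, Hdc lay between -0.23 and 0.05 in the average sorafenib effect, between -0.31 and 0.25 for both agents against control, between -0.09 and 0.23 for both agents against PLX3397, and between -0.08 and 0.20 in the average PLX3397 effect. With limma, Hdc was at -0.01 (0.05) and 0 (0.5) for both agents against PLX3397, and at 0 (0.5) in the average PLX3397 effect. Tpsb2 lay between -3.71 and 0.34 for both agents against sorafenib, and in the interaction between -2.83 and 1.20 and at 0.10 with limma at 0.5. Gata2 was at -0.03 and -0.02 with limma for both agents against control. None of these was called.

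Replicate numbers did not pair the libraries: in 15 pairs the correlation of deviations lay between -0.07 and 0.06. With the replicate block, genes called went from 500 to 221 for sorafenib against control, and Cpa3 in the average sorafenib effect was at -1.57 (adjusted p = 0.0507). In edgeR the sorafenib against control count was 500, and 1739 with DESeq2's Wald test. limma at 0.05 moved the median of all genes to -0.13 for sorafenib against control, -0.15 for both agents against control and -0.12 in the average sorafenib effect. Values of 0 to 28 counts set the precision of the proteases with both agents.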
